A study of Mus musculus with 8 samples.

Results

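The 10 genes of the interleukin 1 family described here, chosen by name as ligands, antagonists and a decoy receptor, were measured in dorsal skin of wild-type and Tph1 knockout mice. They were Il1a, Il1b, Il18, Il33, Il36a and Il36g (signalling ligands), Il1rn, Il36rn and Il1f10 (antagonists or inhibitory ligands) and Il1r2 (a decoy receptor). All 10 were found by symbol, synonym or Ensembl identifier among the 55488 genes of the tables, of which 29649 had an expected count above 0 in at least 1 library. The series compared skin of wild-type mice with skin of mice that lack TPH1, the tryptophan hydroxylase that makes serotonin outside the brain. Mice of both genotypes were 3 months old. Each genotype had 4 bulk RNA-seq libraries, numbered here in the order of their records. The labels give no treatment, sex, strain, knockout allele or number of mice, so the p-values below measure variation between libraries that may be technical in part.

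Interleukin 1 family cytokines are alarm signals of barrier tissue. IL-1α and IL-33 are held inside epithelial cells and act when released, whereas IL-1β and IL-18 are made as inactive precursors that caspase-1 cuts within inflammasomes. The IL-36 cytokines are made mostly by keratinocytes. IL-1α and IL-1β share the receptor IL-1R1, the IL-36 cytokines share the IL-36 receptor, and IL-18 and IL-33 have receptors of their own. A receptor pairs with an accessory chain, which is shared by all but the IL-18 receptor, and signals through MyD88, IRAK kinases and NF-κB. Antagonists occupy a receptor without signalling, and the decoy receptor IL-1R2 binds IL-1 but lacks the signalling domain.

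Of the 10 genes, 7 lie on chromosome 2 of GRCm38. Il36g (chr2:24186476-24193568), Il36a (chr2:24215418-24225702), Il36rn (chr2:24276954-24283426), Il1f10 (chr2:24291196-24293820) and Il1rn (chr2:24336853-24351494) share the plus strand in a 198 kb stretch that also holds Il36b. Il1a (chr2:129299610-129309972) and Il1b (chr2:129364570-129371139) lie on the minus strand within 71.5 kb of each other. Il18 (chr9:50554827-50581840), Il33 (chr19:29925114-29960718) and Il1r2 (chr1:40074079-40125231), all on the plus strand, stand alone or, for Il1r2, at the start of the receptor gene cluster. All are protein-coding.

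The promoters of 5 of these genes are printed, all of which carry sequence elements searched for. The genes range from Il1b, with the largest fitted difference between genotypes, to Il33, with the smallest. Il36rn also carried a CCAAT match before its second start and is not printed. Each line gives the 250 bases before an annotated RefSeq start (GRCm38.p6), 5′ to 3′ on the strand of the gene, with matches on either strand to the AP-1 sequence TGANTCA, to the box named CCAAT and to the TATA box sequence TATAAA in capitals. The windows are chr2:129309973-129310222 (minus) for Il1a, chr2:129371140-129371389 (minus) for Il1b, chr9:50554450-50554699 (plus) for Il18, chr19:29924863-29925112 (plus) for the first of 2 Il33 starts and chr2:24336610-24336859 (plus) for the first of 3 Il1rn starts.
Il1a: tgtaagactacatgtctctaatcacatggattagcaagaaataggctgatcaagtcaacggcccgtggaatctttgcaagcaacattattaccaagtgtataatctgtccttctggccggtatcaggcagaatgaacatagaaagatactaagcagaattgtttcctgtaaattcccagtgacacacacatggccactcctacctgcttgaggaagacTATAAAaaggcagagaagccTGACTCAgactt
Il1b: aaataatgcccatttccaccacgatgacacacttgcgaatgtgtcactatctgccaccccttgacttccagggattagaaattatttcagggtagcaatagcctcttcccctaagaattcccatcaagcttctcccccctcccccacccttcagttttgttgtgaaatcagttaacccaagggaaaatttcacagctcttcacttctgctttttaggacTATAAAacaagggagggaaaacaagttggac
Il18: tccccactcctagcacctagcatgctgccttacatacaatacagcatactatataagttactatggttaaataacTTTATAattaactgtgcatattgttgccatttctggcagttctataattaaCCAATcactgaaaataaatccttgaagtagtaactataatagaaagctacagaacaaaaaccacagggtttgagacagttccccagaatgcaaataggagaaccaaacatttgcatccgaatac
Il33: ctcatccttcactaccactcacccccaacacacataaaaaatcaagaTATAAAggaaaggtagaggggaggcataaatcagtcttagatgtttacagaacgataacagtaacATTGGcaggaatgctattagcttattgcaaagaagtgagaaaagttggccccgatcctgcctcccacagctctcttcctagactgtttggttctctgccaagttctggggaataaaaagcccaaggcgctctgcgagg
Il1rn: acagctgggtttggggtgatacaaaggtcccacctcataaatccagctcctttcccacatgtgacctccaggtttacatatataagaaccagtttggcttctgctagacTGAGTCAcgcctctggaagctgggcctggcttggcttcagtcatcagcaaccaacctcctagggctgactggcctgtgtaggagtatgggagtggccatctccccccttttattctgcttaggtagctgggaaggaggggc
The Il1a promoter held a TATAAA at 32 to 27 bases before the start and the AP-1 sequence TGACTCA at 12 to 6 bases before it. Il1b held a TATAAA at 31 to 26 bases before the start. The Il1rn window held the AP-1 sequence TGAGTCA at 141 to 135 bases before its start. Il33 held a TATAAA at 203 to 198 bases before its first start and, not printed, at 29 to 24 bases before its second.

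RefSeq promoters were found for 9 of the 10 genes, 13 in all, and none was matched for Il36a. The AP-1 sequence was in 2 of the 13, against 6.75% of 32851 promoters of the same length, and TATAAA was in 5, against 12.4%. CCAAT was in 3 of the 13, against 33.8% of all promoters. The κB consensus, searched under its name NF-kB on both strands, was in 0 of the 13 and in 7.25% of all promoters. These matches are a description of the letters in these windows and say nothing of binding.

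Libraries held between 20531601 and 24678638 expected counts, so 3 counts in a library correspond to between 0.122 and 0.146 CPM (counts scaled to library size). Tph1 itself had 18, 0, 27 and 11 counts in wild type replicates 1 to 4 and 0 in each knockout library. Wild type replicate 2, which had no Tph1 read, and knockout replicate 3, where hair follicle genes, led by Tchh, were highest, were therefore also left out together as a check. Skin identity was clear from Krt5, the basal keratin (mean 7431 CPM in wild type, 5909 in knockout), and Lor, the cornified envelope gene (2210 and 798 CPM), and Myh4, a skeletal muscle myosin gene, was abundant too, at 14331 and 18769 CPM. Of 16908 genes tested with edgeR, 20 were higher and 90 lower in knockout at an adjusted p under 0.05.

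The wild-type means of all 10 genes were above their knockout means, yet no member passed the edgeR test. Of the 9 that passed the filter on low counts, 0 were called, against 0.651% of all genes tested, by edgeR's quasi-likelihood test with Benjamini-Hochberg adjustment. The 9 adjusted p-values ran from 0.0683 for Il1r2 to 0.913 for Il33. At an unadjusted p under 0.05, 6 of the 9 were lower in knockout, against 9.37% of all genes tested, and 0 were higher. The fitted log2 fold change, knockout over wild type, was below 0 for 9 of 9, against 46.9% of all genes tested. Its median was -1.03 against 0.03 over all genes. The members were chosen with earlier results of these data known, so these shares are a description only. The limma voom test also called 0 members, and the DESeq2 Wald test called 4 (Il18, Il1r2, Il1rn and Il36g) while calling 971 genes in all. In bulk tissue, fewer cells of a type and less RNA per cell cannot be told apart.

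**Figure D1:**
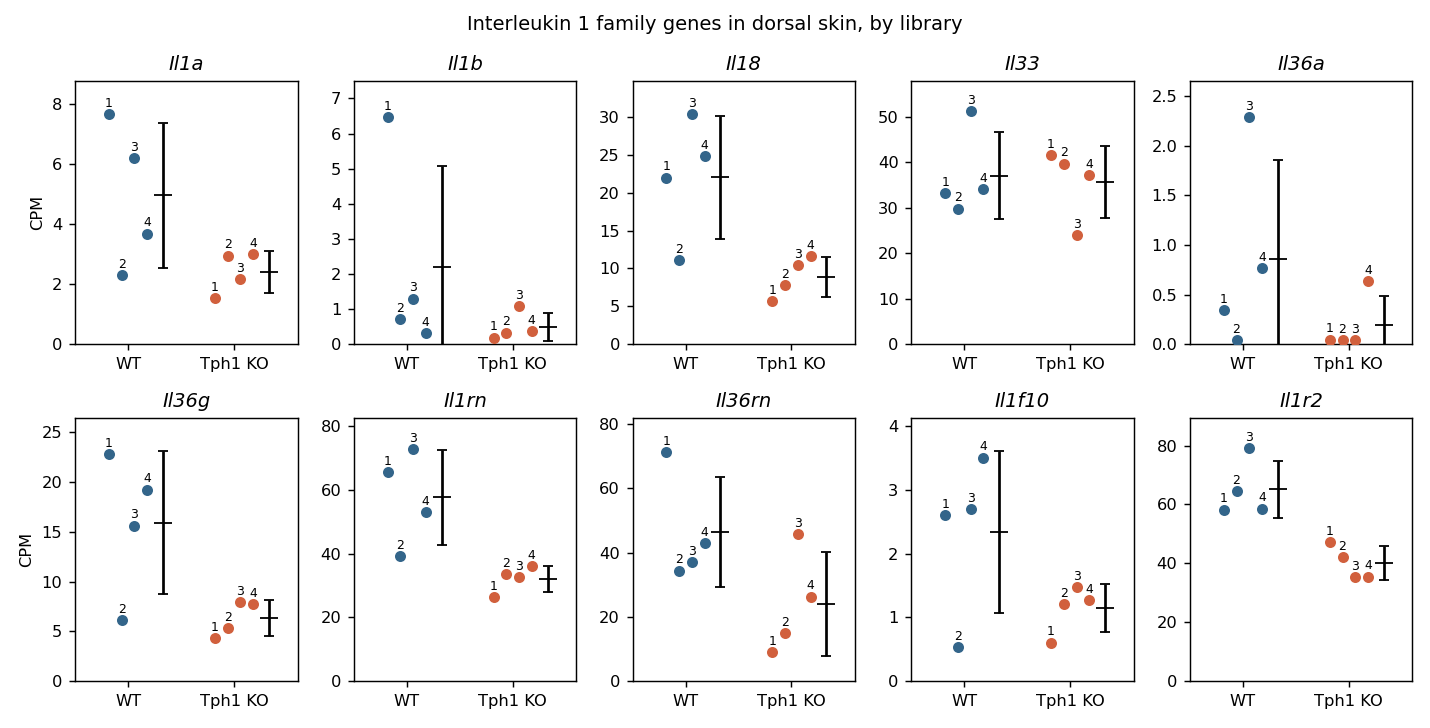
Each panel plots 1 gene, with CPM (linear axis from 0) in 4 wild-type and 4 Tph1 knockout libraries (points, numbered by replicate) and the mean ± SD beside them, with bars cut off where they pass below 0. The genotypes do not overlap for Il1rn and Il1r2 and overlap for the other 8 genes, and wild type replicate 2 sits low in most panels.

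Among the ligands, Il18 and Il36g had the smallest p-values. Il18, the precursor cytokine of keratinocytes and other epithelia, was at 22.0, 11.1, 30.3 and 24.8 CPM in wild type replicates 1 to 4 and at 5.64, 7.82, 10.4 and 11.6 CPM in Tph1 knockout replicates 1 to 4. Wild type replicates 1, 3 and 4 lay above every knockout library, and wild type replicate 2 lay just under knockout replicate 4. Mean levels were 22.0 ± 8.11 and 8.88 ± 2.69 CPM (SD, n = 4 each). The fitted log2 difference was -1.31 ± 0.32 (SE), with an edgeR adjusted p of 0.101.

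Il36g, which encodes IL-36γ, a keratinocyte cytokine that acts at the IL-36 receptor, was at 22.8, 6.08, 15.6 and 19.2 CPM in the wild-type libraries and at 4.35, 5.32, 7.91 and 7.73 CPM in the knockout libraries. The pattern matched that of Il18, with only wild type replicate 2 inside the knockout range. The log2 fold change was -1.33 ± 0.37 (SE) with an edgeR adjusted p of 0.135. Without wild type replicate 2, edgeR called both genes, Il18 at -1.54 (adjusted p = 0.0429) and Il36g at -1.61 (adjusted p = 0.0358). Both were also called without the 2 libraries in doubt (adjusted p = 0.0380 and 0.0267). No other fit without 1 library called either gene, with edgeR adjusted p-values up to 0.255 for Il18 and 0.333 for Il36g.

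Il1a, the gene of the preformed alarmin IL-1α, was at 7.67, 2.31, 6.19 and 3.69 CPM in wild type and at 1.53, 2.95, 2.17 and 3.00 CPM in knockout. The means were 4.96 ± 2.42 and 2.41 ± 0.70 CPM (SD, n = 4 each), and again only wild type replicate 2 fell within the knockout range. The log2 fold change was -1.04 ± 0.39 (SE, edgeR adjusted p = 0.222).

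Il1b, the gene of the inflammasome substrate IL-1β, was scarce and uneven. Its counts were 171, 16, 29 and 7 in wild type and 4, 8, 25 and 8 in knockout, or 6.46, 0.710, 1.30 and 0.315 CPM and 0.185, 0.333, 1.09 and 0.364 CPM. Wild type replicate 1 alone held 76.7% of the wild-type counts. Wild type replicate 3 lay just above the highest knockout library, and wild type replicates 2 and 4 lay within the knockout range. The fitted log2 difference of -2.15 ± 0.92 (SE, edgeR adjusted p = 0.267) became -0.65 without that library (adjusted p = 0.665). Il1b reached 10 counts in 4 libraries, 3 of them wild type.

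Il36a, the gene of IL-36α, was too low for the filter on low counts. It had 9, 1, 51 and 17 counts in wild type and 1, 1, 1 and 14 in knockout, so 3 of 8 libraries reached 10 counts. The means were 0.859 ± 0.998 and 0.192 ± 0.296 CPM (SD, n = 4 each). They differed by -0.667 CPM with an exact two-sided permutation p of 0.2, where the smallest p that 4 against 4 libraries can give is 0.0286. The difference was -0.191 CPM without wild type replicate 3.

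Il33, the gene of a nuclear alarmin that signals through the receptor ST2, had nearly equal means of 37.1 ± 9.61 CPM in wild type and 35.6 ± 7.96 CPM in knockout (SD, n = 4 each). By library it was at 33.2, 29.8, 51.2 and 34.0 CPM in wild type and at 41.6, 39.7, 24.0 and 37.1 CPM in knockout. The highest library was wild type replicate 3 and the lowest was knockout replicate 3. The genotypes overlapped, with knockout replicates 1, 2 and 4 within the wild-type range. The log2 fold change was -0.06 ± 0.21 (SE, edgeR adjusted p = 0.913), and its sign was positive in 5 alternative fits, including 0.14 without wild type replicate 3 and 0.09 without knockout replicate 3. Whether the fold change of Il33 differed from those of the other ligands was not tested.

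Of the antagonists, Il1rn had the smallest p-value. Il1rn, which encodes the IL-1 receptor antagonist, was at 65.7, 39.1, 72.8 and 53.0 CPM in wild type and at 26.4, 33.5, 32.6 and 36.0 CPM in knockout. All 4 knockout libraries lay below all 4 wild-type libraries, as they did for Il1r2 alone among the other members (2 of 9 tested, against 5.67% of all genes tested). Mean levels were 57.7 ± 14.8 and 32.1 ± 4.06 CPM (SD, n = 4 each). The fitted log2 difference was -0.84 ± 0.19 (SE), with an edgeR adjusted p of 0.0900. On the scale of TPM, which corrects for transcript length, the separation ended in a tie, since wild type replicate 2 and knockout replicate 3 both stood at 23.4 TPM. Il1rn was called without wild type replicate 2 (adjusted p = 0.0395), without the 2 libraries in doubt (-1.02, adjusted p = 0.0456) and when no filter on low counts was applied (adjusted p = 0.0483). No other fit without 1 library called it, with edgeR adjusted p-values up to 0.269.

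Il36rn, which encodes the antagonist of the IL-36 receptor, was at 71.4, 34.4, 37.0 and 42.8 CPM in wild type and at 8.92, 14.8, 45.7 and 26.3 CPM in knockout. Knockout replicate 3 lay above 3 of the wild-type libraries, while the other knockout libraries lay below all of them. The log2 fold change was -0.95 ± 0.45 (SE, edgeR adjusted p = 0.307), and it was -1.48 without knockout replicate 3 (adjusted p = 0.145). The difference within the knockout group, from 8.92 to 45.7 CPM, was the widest of the 3 antagonists.

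Il1f10, the gene of IL-38, an inhibitory ligand of the family, was at 2.61, 0.533, 2.69 and 3.51 CPM in wild type and at 0.601, 1.21, 1.48 and 1.27 CPM in knockout. Wild type replicate 2 had the lowest value of all 8 libraries, and the other wild-type libraries lay above every knockout library. The log2 fold change was -1.03 ± 0.52 (SE, edgeR adjusted p = 0.335).

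Il1r2, the decoy receptor gene, gave the smallest p-value of the family. It was at 58.2, 64.4, 79.1 and 58.5 CPM in wild type and at 47.1, 42.1, 35.2 and 35.4 CPM in knockout, so the genotypes did not overlap. Mean levels were 65.1 ± 9.76 and 40.0 ± 5.75 CPM (SD, n = 4 each). The fitted log2 difference was -0.70 ± 0.14 (SE), at an edgeR adjusted p of 0.0683. The 8 fits without 1 library gave -0.80 to -0.60 with adjusted p-values from 0.101 to 0.270. Unlike most members, Il1r2 did not have its lowest wild-type value in replicate 2. It was called with the level of basal keratinocyte genes as a covariate (-0.65, adjusted p = 0.0414).

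The same libraries were high or low for many members. Wild type replicate 3 had the highest value of the 8 libraries for 5 genes, wild type replicate 1 for 4 and wild type replicate 4 for 1. Knockout replicate 1 had the lowest value for 6 genes. Wild type replicate 2 was the lowest wild-type library for 8 of the 10 genes, and for 8 its value did not exceed the highest knockout library.

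**Figure D2:**
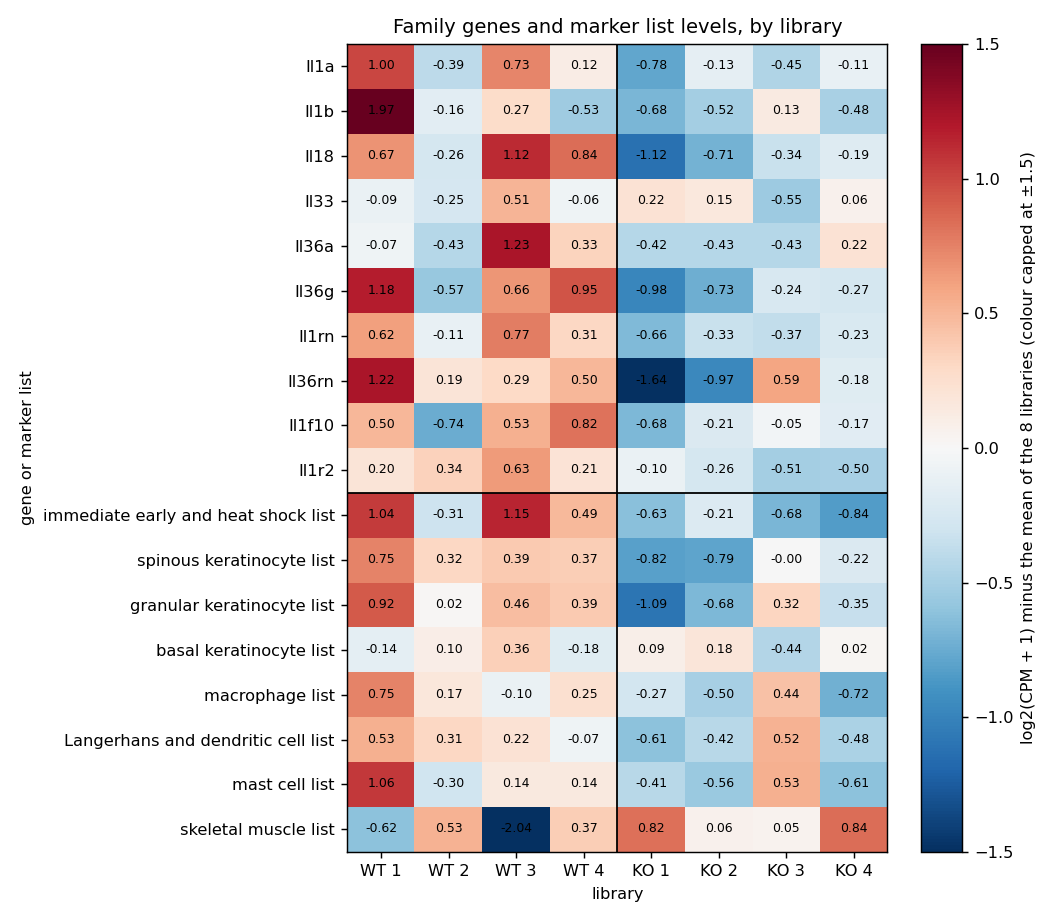
The heat map shows log2(CPM + 1) of each member (upper rows) and the mean log2(CPM + 1) of marker lists (lower rows) in the 8 libraries, each row minus its own mean, with colour capped at ±1.5. Wild type replicates 1 and 3 are high and knockout replicate 1 is low for most members and for the immediate early, spinous and granular lists, while Il33 and the basal list show no such pattern.

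Several marker lists differed between the same libraries. Immediate early and heat shock genes can respond to handling of tissue, among other stimuli, and what set their levels here was not tested. The list of 28 such genes had levels of 7.01 to 8.47 in wild type, lowest in replicate 2, and 6.48 to 7.11 in knockout. Its median log2 fold change was -1.15, Hspa8 was its most abundant gene and Nr4a1 was called. The 18 granular keratinocyte genes ranged from 6.09 to 6.996 in wild type and from 4.98 to 6.40 in knockout, lowest in knockout replicate 1, with a median of -0.92 and 3 called (Lor, Crct1 and Klk8). The 11 spinous genes ranged from 8.61 to 9.04 and from 7.47 to 8.29, with Krt10 the most abundant and 3 called (Krtdap, Calm4 and Krt78). The 11 basal genes ranged from 9.04 to 9.57 and from 8.77 to 9.40, with 0 called and a median of -0.10. These levels are means of log2(CPM + 1).

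With the immediate early and heat shock level as a covariate, the fold changes of Il18, Il36g, Il1rn and Il1r2 were -0.51, -0.29, -0.21 and -0.55, that of Il36rn was -0.74, and those of Il1a, Il1b, Il33 and Il1f10 turned positive (0.29, 0.11, 0.40 and 0.42). With the granular level as a covariate, an alternative chosen after seeing the data, Il1r2 was at -0.95, Il18 at -0.67, Il1rn at -0.50, Il33 at -0.42, Il36g at -0.39, Il1a at -0.26 and Il1f10 at -0.08. Il1b and Il36rn turned positive with it (0.38 and 0.22). No member was called with either covariate, and over all genes 6 and 11 were called, against 110 without a covariate. Both lists differed between genotypes, so covariate and genotype can be only partly separated in 8 libraries, and their part in the members' differences was not tested further.

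No immune cell marker was called. In 4 immune lists 3 knockout libraries lay below every wild-type library while knockout replicate 3 lay within the wild-type range. Gata3 led the T and innate lymphoid cell list, at 282 CPM in wild type and 242 CPM in knockout. The next gene, Ptprc, was at 9.81 and 9.95 CPM. That list differed from the 4, with 2 knockout libraries below every wild-type one. Its level in knockout replicate 3 was 2.55, above the wild-type maximum of 2.27, and its median log2 fold change was -0.16. The 12 macrophage genes, of which Lyz2 was the most abundant, ranged from 3.93 to 4.78 in wild type, highest in replicate 1, the library with most Il1b, and from 3.31 to 4.47 in knockout. All 12 had counts and 11 had negative fold changes, against 46.9% of all genes tested, with a median of -0.61. The 12 Langerhans and dendritic cell genes, led by Cd74, ranged from 4.46 to 5.06 and from 3.92 to 5.05, with a median of -0.59.

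The 10 mast cell genes, led by Mcpt4, ranged from 1.64 to 2.99 and from 1.33 to 2.47, with a median of -0.81 over the 7 tested. The 10 neutrophil genes, led by Mmp9, ranged from 0.611 to 0.762 and from 0.266 to 0.738. The defining neutrophil gene Ly6g was at 0 in every library, and the median was -0.55 over the 2 tested. Among knockout libraries, replicate 3 had the highest levels of the immune lists and of the spinous, granular, hair follicle and sebocyte lists. It was also the highest knockout library for Il1b, Il36g, Il36rn and Il1f10, and the lowest of all libraries for Il33 and Il1r2. The 15 skeletal muscle genes, led by Myh4, were at 9.28 to 11.8 in wild type, lowest in replicate 3, and at 11.4 to 12.2 in knockout. The part of these cell types in the members' values was not tested beyond the muscle, basal and granular covariates. With the muscle level as a covariate, 0 members and 26 of all genes were called. Fold changes were then -1.25 for Il1b, -1.15 for Il36g, -1.01 for Il18, -0.81 for Il36rn and -0.78 for Il1f10. Il1r2 was at -0.60, Il1rn at -0.58, Il1a at -0.58 and Il33 at 0.14.

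Compared per length, Il1r2, Il18, Il1rn and Il36rn had the highest wild-type means of the family. In wild type the order of mean TPM was Il1r2 (73.8 ± 15.8 TPM), Il18 (45.6 ± 17.9), Il1rn (37.7 ± 14.4), Il36rn (31.9 ± 17.3), Il33 (20.1 ± 5.65), Il36g (13.9 ± 6.92), Il1f10 (7.68 ± 3.98), Il1a (3.61 ± 2.04), Il1b (3.09 ± 4.53) and Il36a (1.54 ± 1.73; SD, n = 4 throughout). The libraries of neighbours in this order overlapped in all 9 pairs, so adjacent positions are not resolved. In knockout the order was Il1r2 (41.9 ± 3.96 TPM), Il1rn (19.4 ± 4.20), Il33 (18.7 ± 2.54), Il36rn (17.3 ± 14.9), Il18 (17.3 ± 6.20), Il36g (5.45 ± 2.19), Il1f10 (3.86 ± 1.79), Il1a (1.68 ± 0.53), Il1b (0.698 ± 0.785) and Il36a (0.383 ± 0.559). Neighbours overlapped in 7 of 9 pairs there, and the gaps without overlap were between Il1r2 and Il1rn and between Il18 and Il36g.

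**Figure D3:**
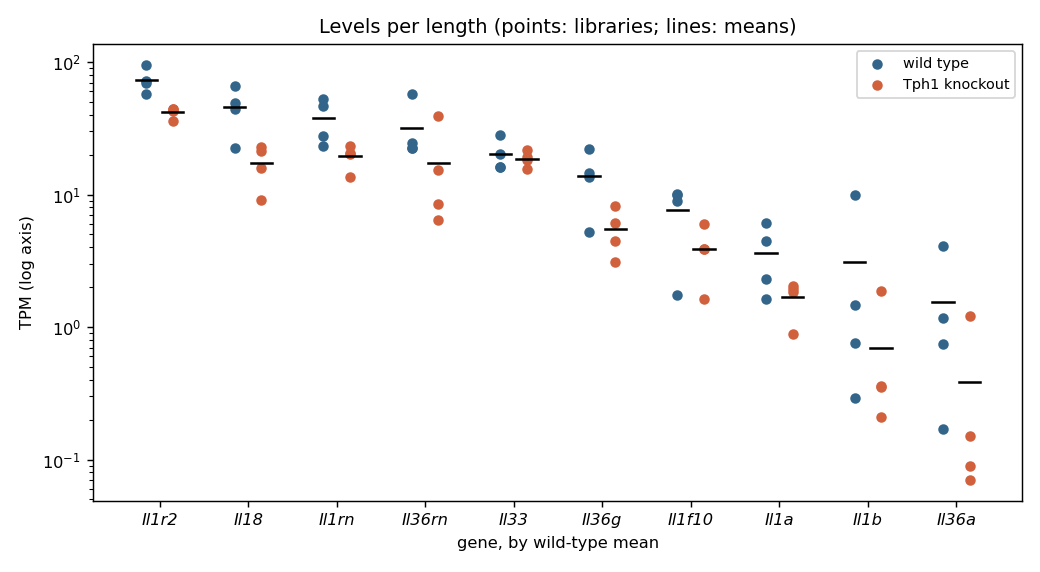
TPM of each member on a log axis, ordered by the wild-type mean, with 1 point per library and lines at the means of 4 wild-type and 4 Tph1 knockout libraries. Il1r2 leads in both genotypes, at 73.8 and 41.9 TPM, and Il36a is lowest, at 1.54 and 0.383 TPM.

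Ratios of inhibitor to agonist were computed per library from TPM as descriptions. Il1rn exceeded the sum of Il1a and Il1b in every library, by 3.32 to 10.7 times in wild type and 6.29 to 12.3 times in knockout. Il36rn exceeded the sum of Il36a and Il36g by 1.28 to 4.15 times in wild type and 1.87 to 4.72 times in knockout. Both ratios overlapped widely between genotypes, with mean log2 values that differed by 0.27 and 0.20.

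The decoy receptor Il1r2 stood at 4.09 to 8.33 times the signalling receptor Il1r1 in wild type and at 3.20 to 4.20 times in knockout, a mean log2 difference of -0.57. Only wild type replicate 1 lay within the knockout range. The ratio of Il18bp, the soluble IL-18 binding protein gene, to Il18 was 0.0471 to 0.160 in wild type and 0.122 to 0.244 in knockout, a mean log2 difference of 1.09 with overlapping libraries. Fitted fold changes of Il18bp and Il1r1 were -0.21 ± 0.24 and -0.22 ± 0.18 (SE, edgeR adjusted p = 0.661 and 0.548).

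The wider pathway was described from lists of receptors, inhibitors, signalling, processing and response genes. Of 74 pathway genes that are not members, 57 were tested and 0 were called by edgeR, against 0.651% of all genes tested. At an unadjusted p under 0.05, 20 were lower, against 9.37% of all genes tested, and 0 higher. Fold changes were negative for 46 of the 57, against 46.9% of all genes tested, with a median of -0.40 against 0.03. These lists, too, were chosen with earlier results known. limma voom called 0 of them and the DESeq2 Wald test 9, with 971 called over all genes. Without wild type replicate 2 edgeR called 4 (Casp4, Cxcl1, Tnfaip3 and Zc3h12a) and 88 over all genes. Without knockout replicate 3 it called 1 (Gsdma), and 170 over all genes. The other fits without 1 library called 0 of them, and 8 to 32 over all genes.

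Of 6 listed receptor genes 5 were tested, 3 with negative fold changes (46.9% over all genes tested), with a median of -0.22. Il1rl2, which encodes the IL-36 receptor, had a wild-type mean of 93.5 ± 15.6 CPM and a knockout mean of 71.2 ± 12.5 CPM (SD, n = 4 for both), with -0.39 ± 0.17 (SE, edgeR adjusted p = 0.260) on the log2 scale. Il18r1, the ligand-binding chain for IL-18, was at -0.59 ± 0.33 (SE, edgeR adjusted p = 0.368). Of the inhibitory receptors, Sigirr, a negative regulator of the pathway, was at -0.64 ± 0.26 (SE, edgeR adjusted p = 0.243).

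Signal transduction genes were 13 of 20 negative, against 46.9% of all genes tested, with a median of -0.20. Rela, an NF-κB subunit gene, had a wild-type mean of 77.2 ± 10.7 CPM and a knockout mean of 53.8 ± 5.91 CPM (SD, n = 4 for both), with -0.52 ± 0.13 (SE, edgeR adjusted p = 0.114) on the log2 scale. Nfkbia, the NF-κB inhibitor that NF-κB itself induces, was at -1.26 ± 0.34, and the adaptor gene Myd88 at -0.57 ± 0.15 (SE, edgeR adjusted p = 0.123 and 0.124). Of 21 inflammasome and processing genes 17 were tested and 16 were negative, against the same share of all genes, with a median of -0.55. Casp4, the inflammatory caspase gene, had means of 15.7 ± 4.30 and 8.01 ± 1.09 CPM (SD, n = 4 for both), with -0.97 ± 0.23 (SE, edgeR adjusted p = 0.0946) on the log2 scale. Nlrp10, a sensor family gene expressed in epidermis, was at -0.92 ± 0.27, and the inflammasome adaptor gene Pycard at -0.44 ± 0.14 (SE, edgeR adjusted p = 0.152 and 0.184).

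Genes known to be induced by IL-1 and IL-36 were mostly lower on average in knockout, without passing. Of 24 listed response genes 12 were tested and 11 were negative, against 46.9% of all genes tested. Their median was -1.23 on the log2 scale, against 0.03 over all genes. The 6 tested ligands, Il36b included, had a median of -1.23. Tnfaip3, which encodes the NF-κB feedback inhibitor A20, had a wild-type mean of 109.8 ± 83.1 CPM and a knockout mean of 20.8 ± 3.42 CPM (SD, n = 4 for both), with -2.40 ± 0.56 (SE, edgeR adjusted p = 0.0930) on the log2 scale. Cxcl1, a neutrophil chemokine gene, was at 6.30 ± 5.93 and 0.464 ± 0.273 CPM (-3.75 ± 0.93 SE, edgeR adjusted p = 0.104). Zc3h12a, whose product degrades cytokine mRNAs, was at -1.18 ± 0.30 (SE, edgeR adjusted p = 0.112). For each of these genes wild type replicate 2 lay within the knockout range, at 22.9, 0.399 and 23.4 CPM. The other wild-type libraries lay above that range. The part of the immediate early level, given above, in these values was not tested apart from the covariate fit. That fit called 0 pathway genes and 6 over all genes.

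**Figure D4:**
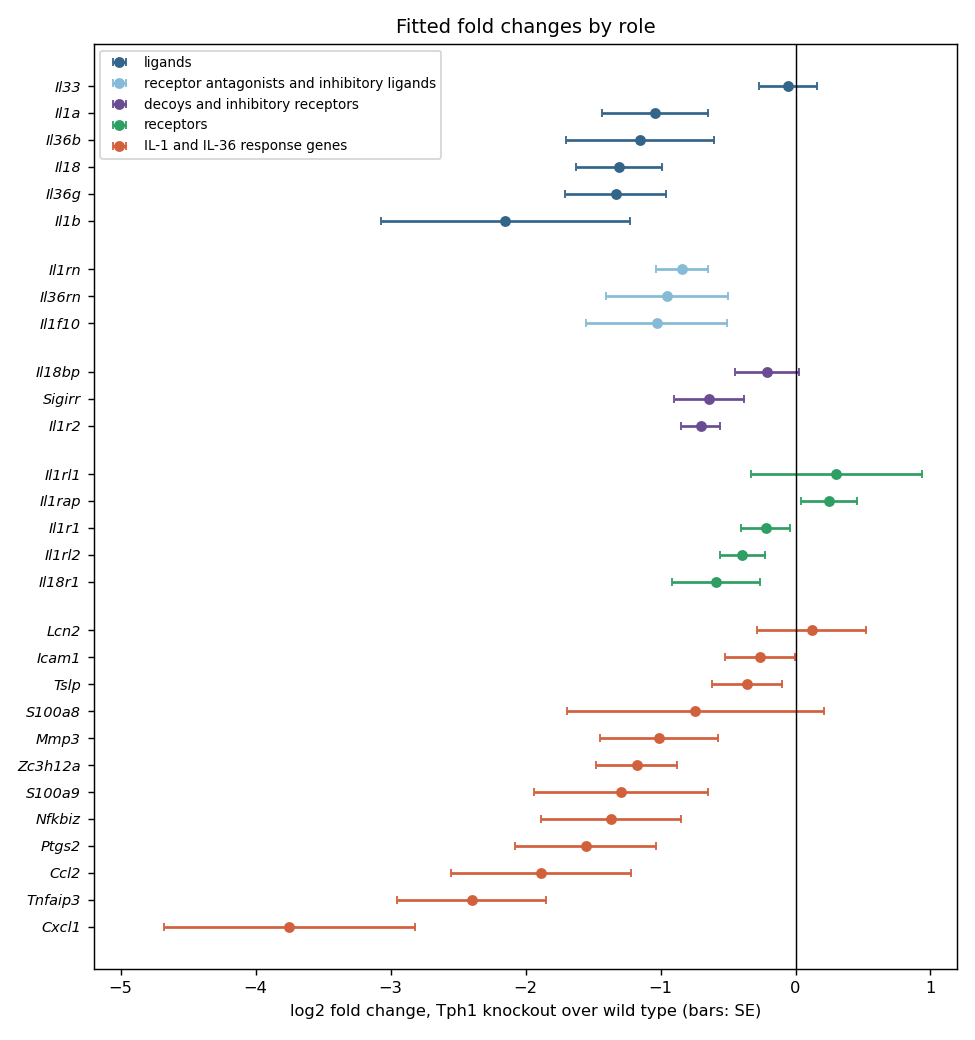
Fitted log2 fold changes, Tph1 knockout over wild type, with SE bars (edgeR, 4 libraries each), for the tested ligands, antagonists, decoys, receptors and response genes. Il33 and Lcn2 lie near 0, the receptors between -0.59 and 0.30, and the other ligands and the antagonists between -0.84 (Il1rn) and -2.15 (Il1b).

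The members were also set beside the genes around them. In the ligand cluster on chromosome 2, the tested neighbours outside the family were Hnmt at -0.03 ± 0.20 (SE, edgeR adjusted p = 0.946) and Psd4 at -0.31 ± 0.13 (adjusted p = 0.249). Il36b, a family ligand in the cluster that is not among the 10 members and is named after its values were seen, was at -1.15 ± 0.55 (adjusted p = 0.309). Around Il1r2 and the receptor cluster on chromosome 1, the 3 tested genes outside the family were Map4k4 at -0.21 ± 0.13 (adjusted p = 0.415), Slc9a2 at 0.51 ± 0.38 (adjusted p = 0.499) and the pseudogene Gm17970 at 1.12 ± 0.44 (adjusted p = 0.237). Within 200 kb of Il1a and Il1b, 10 genes outside the family were tested, 7 with negative and 3 with positive fold changes, and their median was -0.06. They ran from -0.47 ± 0.14 for Slc20a1 (adjusted p = 0.148) to 1.36 ± 0.44 for the pseudogene Gm14026 (adjusted p = 0.177), which are named as the ends of the range after their values were seen. None of these neighbours was called by edgeR, and whether the family genes differed from them was not tested.

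**Figure D5:**
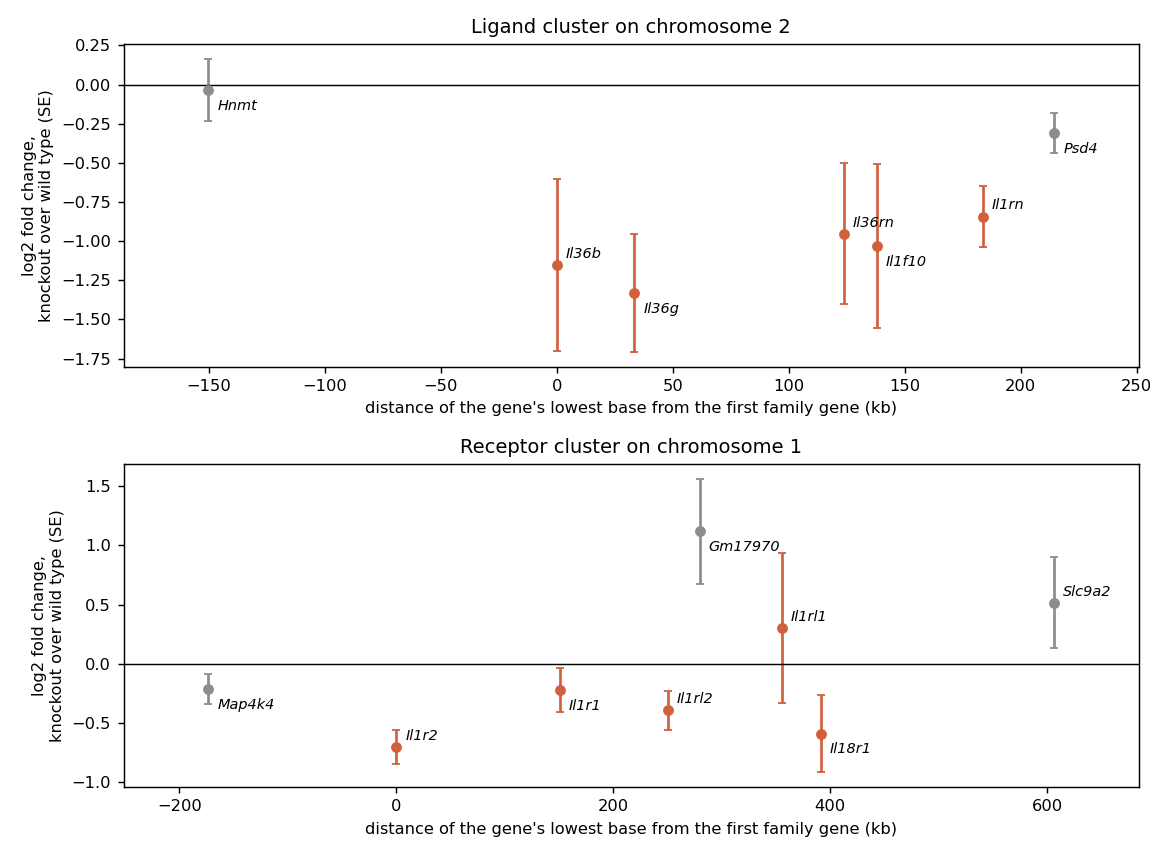
Fitted log2 fold changes with SE against distance in kb from the first family gene of the ligand cluster (upper) and the receptor cluster (lower), with family genes in orange and other tested genes in grey. In the ligand cluster the 5 tested family genes lie between -0.84 and -1.33 and the flanking genes at -0.03 and -0.31.

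Several members overlap other annotated genes, whose reads could not be told apart by strand with this kit. Il1bos, antisense to Il1b, had 75 counts over the wild-type libraries and 76 over the knockout libraries, with 9 in wild type replicate 1, where Il1b had 171. Gm14023, opposite Il1a, had 97 and 91 counts. Bco2, which overlaps the first bases of Il18 on the other strand, had 202 counts in wild type and 94 in knockout, against 249 to 676 Il18 counts in a single wild-type library. Gm16894 and Gm37347 within Il1r2 had 16 and 14 counts in all wild-type libraries together.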

How the data were processed

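Total RNA of dorsal skin was extracted with a Qiagen column kit and made into libraries with a NEBNext Ultra kit, per the labels' protocols. That kit does not mark strand. STAR 2.7.6a, RSEM 1.31, DESeq2, DESeq and GRCm38 are named, without roles, in the submitters' processing notes, and Ensembl release 101 is named per the labels. The deposited tables hold RSEM expected counts, which are not normalized, and between 10.7% and 11.5% of genes per library had a value that was not whole. The deposited TPM values correct for transcript length, per the file headers, and served for levels and ratios. The deposited FPKM values were not used. The authors' matrix of 17382 genes holds a normalized signal, described as DESeq2-normalized per the labels, and was used only as a check: all 10 members had a lower knockout mean in it, and the genotypes were separate for the same 2 genes.

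Expected counts were rounded and tested on all genes with edgeR 4.0.16 in R 4.3.3 (filterByExpr with minimum count 10 and total 15, TMM, robust quasi-likelihood F test, genotype as the only term). A call is a Benjamini-Hochberg adjusted p under 0.05 over all genes tested. SE was derived from the fold change and its F statistic. CPM is relative to TMM-scaled library size, except for the limit of 3 counts, which uses the plain total and covers counting error only. DESeq2 1.42.0, limma 3.58.1, other scalings and filters, a length offset, 4 covariates and fits without libraries were alternatives. The test was checked on simulated counts. Il36a, Il36b, Il36g and Il36rn appear in the tables as Il1f6, Il1f8, Il1f9 and Il1f5 and were matched by RefSeq synonyms, and Krt85 was not matched. Coordinates are from GENCODE M21 on GRCm38. Promoters were searched over 250 bases, leaving out the bases after the start.

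All 10 members are described. From each pathway list the genes called, or else those with the smallest p up to 3, are named, and from each marker list described, the most expressed gene and those called. Lists of sebocyte, T and innate lymphoid cell, fibroblast, endothelial and adipocyte markers were also measured, and 0 of their genes were called. For each tested member the 3 genes with the highest Pearson r are named. The members and lists were chosen with earlier results of these data known.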

Additional observations from a re-analysis of the deposited data

Results flagged for a closer look

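Among the 20 groups of 4 libraries searched (10 genes in each genotype), 2 held a library far from the rest by Dixon's criterion, where chance gives about 1. Il1b stood at 6.46 CPM in wild type replicate 1, from 171 counts, against 0.315 to 1.30 CPM in the other wild-type libraries. Il36a stood at 0.637 CPM in Tph1 knockout replicate 4, from 14 counts, against 0.0416 to 0.0462 CPM in the other knockout libraries, each with 1 count. The level of macrophage markers was highest in wild type replicate 1 (4.78), and that of mast cell markers too (2.99), and their part in the Il1b value was not tested.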

How the results depend on the processing

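No paired analysis was possible because libraries were numbered by record order only. The number of genes called over all genes, 110, was 971 with DESeq2, 8 to 170 without 1 library, 167 without the 2 libraries in doubt, and 6, 26, 192 and 11 with the immediate early and heat shock, skeletal muscle, basal and granular keratinocyte levels as covariates. Members called, 0, became 4 with DESeq2, 0 to 3 without 1 library, 3 without the 2 libraries in doubt, and 1 with no filter on low counts or with the basal covariate. The other pathway genes called, 0, became 9 with DESeq2, 0 to 4 without 1 library and 5 without the 2 libraries in doubt. The granular covariate was chosen after seeing the data.

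Il18, Il36g, Il1rn and Il1r2 kept a negative fold change in 20 of 20 alternative fits, from -1.63 to -0.51, -1.74 to -0.29, -1.02 to -0.21 and -0.95 to -0.55. The sign turned with the immediate early covariate for Il1a (0.29), Il1b (0.11), Il33 (0.40) and Il1f10 (0.42), and with the granular covariate for Il1b (0.38) and Il36rn (0.22). Il33 was also positive with the muscle covariate (0.14) and the basal covariate (0.016), and in 2 of the fits without 1 library, which gave -0.16 to 0.14. The cause was not tested. Il1b was filtered out without the 2 libraries in doubt and gave no value there. The Il36a difference ran from -0.94 to -0.19 CPM without 1 library. Depth limits Il1b and Il36a, which reached 10 counts in 4 and 3 of 8 libraries.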

Other observations

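The genes whose levels followed each member most closely over the 8 libraries are given as a description, as Pearson's r of log2(CPM + 1) among 11471 genes with a mean of at least 5 CPM, and libraries share genotype, depth and tissue make-up. Il18 ran closest with Cysrt1 (r = 0.99), Trex2 (0.99) and Klk9 (0.98), and these had log2 fold changes of -1.43, -1.52 and -1.37. Il1rn ran closest with Tspan5 (0.99), Nkpd1 (0.98) and Bpifc (0.98), and Il36rn with Lypd5, Xkrx and Prcp (0.99 each). Il1f10 ran closest with Aloxe3 (0.97), an epidermal lipoxygenase gene, followed by Tmem167 (0.96) and Hsd17b14 (0.95).

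Il36g ran closest with Abhd17c, Srpk1 and Ggct (0.96 each) and Il1a with Slc19a2 (0.99), Sdcbp2 (0.97) and Klf6 (0.96), where Klf6 belongs to the immediate early list. Il1r2 ran closest with Sub1, Snrnp25 and Anxa2 (0.99 each), and 309 genes exceeded an r of 0.9 with it, against 11 for Il1f10. Il33 ran closest with Ezh2 (0.98), the Polycomb methyltransferase gene, Ctnnal1 (0.97) and Epop (0.95), whose log2 fold changes were -0.03, -0.08 and 0.06. The Il1b neighbours Dennd2c (0.99), Shroom2 (0.98) and Sgms1 (0.98) follow a gene whose wild-type counts lie mostly in 1 library.

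The deposited effective length, which RSEM weights by isoform and which enters TPM, differed between libraries for several members, both main antagonists included. It was 890 to 1213 bases for Il1b, 336 to 738 for Il36a, 603 to 701 for Il18 and 1083 to 1213 for Il1r2. It was 1801 bases for Il1rn in wild type replicate 1 and 2028 to 2173 bases in the other 7 libraries, and 1478 to 2207 bases for Il36rn over the 8 libraries. With a length offset the fold changes were -0.89 for Il1rn and -0.90 for Il36rn (edgeR adjusted p = 0.117 and 0.359).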
